A study of Rattus norvegicus with 17 samples.

Results

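Wnt ligands, their receptors and their secreted inhibitors were followed in the hippocampus of adolescent Long-Evans rats whose dams received 1 of 3 diets from gestational day 0 to 20. The members are every gene of the count table with a symbol of the Wnt, Fzd, Sfrp 1 to 5 or Dkk 1 to 4 series, plus Lrp5, Lrp6, Wif1, Axin2 and Ctnnb1, and they number 42 of the 34322 genes in the table: 19 ligands, 10 Frizzled receptors, 2 co-receptors, 9 secreted inhibitors and 2 intracellular genes. The rule used symbols and no measured value. RNA was sequenced from 17 rats, 36 to 38 days old and born to dams that all ate chow after the diets ended: 5 ET rats (dams on a liquid diet with 6.7% ethanol, which supplied 36% of calories), 6 PF rats (dams pair-fed the liquid diet without ethanol, yoked to an ET dam) and 6 AD rats (dams with chow ad libitum). Each diet group came from 1 litter, so diet and litter cannot be told apart, and p-values measure the spread between littermates. The left hippocampus was used for all but 4 rats, of which 1 was ET, 2 were PF and 1 was AD.

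Wnt proteins are secreted ligands that bind Frizzled receptors together with the co-receptors Lrp5 and Lrp6. In the canonical branch, binding keeps beta-catenin (Ctnnb1) from being degraded by a complex that contains Axin proteins, and beta-catenin then acts with Tcf and Lef factors on target genes, of which Axin2 is a classical one. Secreted frizzled-related proteins (Sfrp) and Wif1 bind Wnt ligands outside the cell, whereas Dickkopf proteins (Dkk) act mainly on the co-receptors. In the hippocampus the pathway is known for its part in forming the region before birth, in adult neurogenesis and at synapses.

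Between 10853947 and 17498392 fragments were counted per library (median, 13538433). The 3 diet comparisons were fitted on the 14 libraries of the study's final analysis (4 ET, 5 PF and 5 AD), and 3 libraries that stand apart by their choroid plexus RNA, ET replicate 2, PF animal 11f6 and AD replicate 4, were left out. The summed normalized count of 10 choroid plexus markers lay between 98059.1 and 125717.3 in these 3 libraries and between 121.3 and 16266.2 in the other 14. Of those 14, 0 ET, 2 PF and 1 AD came from the right hippocampus, so side was not balanced between diets. Hippocampal markers were high in every library, with a sum over 10 genes of 9983.8 to 21255.4. Counts of Y-linked genes went against the sex label in 2 AD libraries, so sexes were compared in ET and PF alone. Levels below are normalized counts, that is, fragments scaled to a common library size but not to gene length, so they compare libraries for 1 gene and do not rank genes.

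The promoter sequences of 4 genes are printed because the results turn on 3 of them, the receptor Fzd10, the inhibitor Sfrp2 and the Dishevelled-binding antagonist Nkd1, and because Axin2 is the reference target of the pathway. Each run holds the 250 bases before the annotated start, 5′ to 3′ on the gene's own strand, from RefSeq on the assembly GRCr8. Capitals mark CTTTGAT, a form of the 7-letter core bound by Tcf and Lef factors, which was searched on both strands (ATCAAAG on the other). Other forms of the core were not searched or marked. They lie at chr10:94398535-94398784 (+) for Axin2, chr19:34722847-34723096 (-) for Nkd1, chr12:33737560-33737809 (-) for Fzd10 and chr2:171387286-171387535 (+) for Sfrp2.
Axin2: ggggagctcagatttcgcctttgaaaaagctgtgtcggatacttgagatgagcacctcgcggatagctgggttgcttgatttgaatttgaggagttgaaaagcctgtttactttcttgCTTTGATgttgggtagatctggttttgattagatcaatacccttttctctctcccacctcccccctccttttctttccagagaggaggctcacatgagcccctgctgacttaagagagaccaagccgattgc
Nkd1: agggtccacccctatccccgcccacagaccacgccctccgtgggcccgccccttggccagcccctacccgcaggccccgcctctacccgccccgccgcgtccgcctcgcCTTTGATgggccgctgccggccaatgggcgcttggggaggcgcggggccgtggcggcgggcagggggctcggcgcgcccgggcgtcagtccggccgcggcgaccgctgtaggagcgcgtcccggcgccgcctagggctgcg
Fzd10: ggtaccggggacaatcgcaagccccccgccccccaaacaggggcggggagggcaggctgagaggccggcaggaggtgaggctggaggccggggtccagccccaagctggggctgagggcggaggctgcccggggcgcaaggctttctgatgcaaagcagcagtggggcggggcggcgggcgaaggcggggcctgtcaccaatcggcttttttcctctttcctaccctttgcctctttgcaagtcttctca
Sfrp2: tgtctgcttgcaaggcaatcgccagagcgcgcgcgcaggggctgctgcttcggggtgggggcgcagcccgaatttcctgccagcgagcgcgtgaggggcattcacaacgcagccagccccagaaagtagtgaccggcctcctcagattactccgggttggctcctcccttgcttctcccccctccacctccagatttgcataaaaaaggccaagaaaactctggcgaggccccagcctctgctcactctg
The motif starts 132 bases before the start of Axin2 and 141 bases before that of Nkd1, and these letters are not in the windows of Fzd10 and Sfrp2. It was present in 1 of the 29 members with a promoter entry, in 2 of 54 other pathway genes (Nkd1 and the transcription factor gene Sp5) and in 1054 of all 33469 promoters (3.15%). These shares are descriptions of the letters of this form alone, and no binding was measured.

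Most of the module was expressed in this tissue. More than 3 counts were found in all 17 libraries for 15 of 19 ligands, 10 of 10 Frizzled receptors, both co-receptors, 7 of 9 secreted inhibitors and both intracellular genes. Wnt8a stayed at or under 3 counts in every library, the level that a count of 0 allows, which is 1.71e-05% to 2.76e-05% of the fragments of a library for counting error alone. Dkk1, the best known inhibitor of Lrp5 and Lrp6, ranged from 0 to 5.72 normalized counts, and Sfrp5 from 0 to 9.29. After removal of genes with low counts, 37 members were tested in ET against PF and 36 in each comparison with AD. Wnt8a, Wnt11, Fzd5, Dkk1 and Sfrp5 were tested in none of them, and Wnt9b was tested in ET against PF alone.

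**Figure D1:**
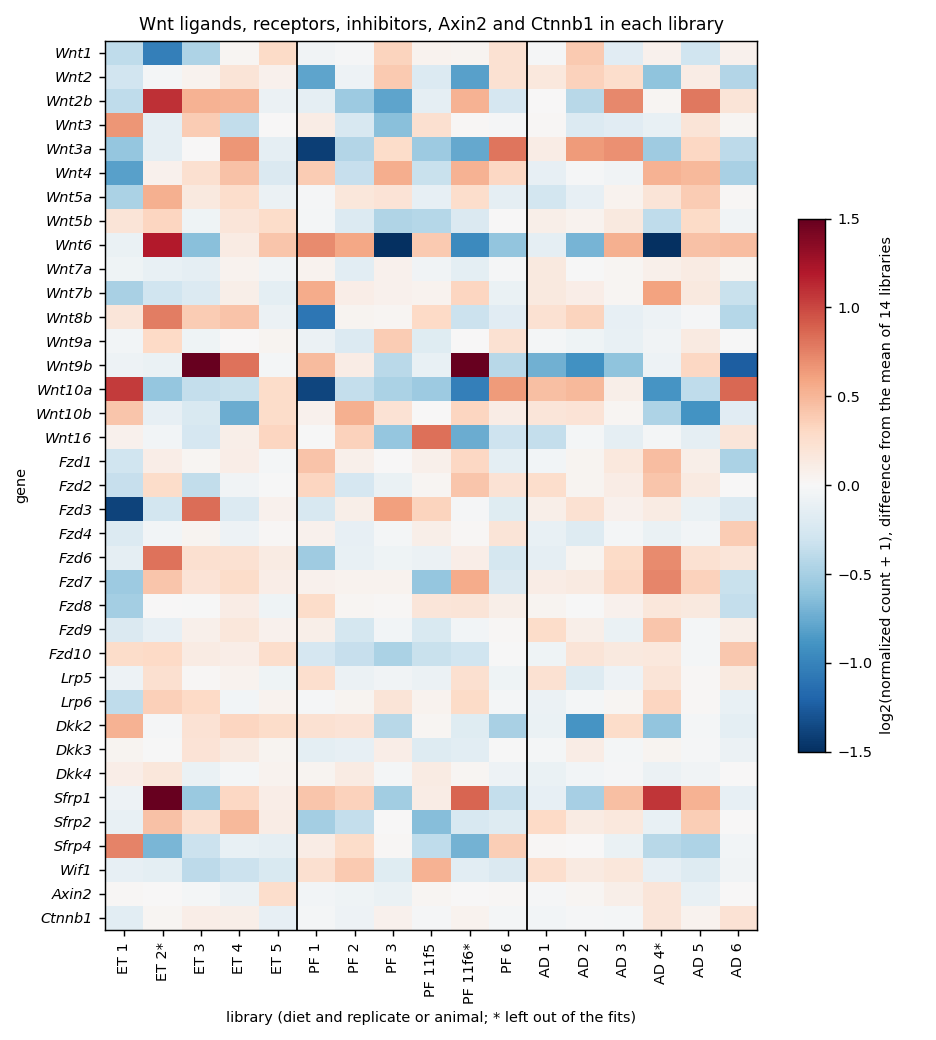
Level of the 37 tested members (rows) in each of 17 libraries (columns), as log2(normalized count + 1) minus the gene's mean over the 14 fitted libraries, with colours capped at 1.5 in either direction. Fzd10 is lower in the PF libraries, least so in PF replicate 6, and Wnt9b is furthest above its mean in ET replicate 3 and PF animal 11f6.

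The first comparison asks what prenatal ethanol left in the hippocampus when the amount of liquid diet was matched. In ET against PF, 1 Frizzled receptor, Fzd10, was higher, and no ligand, co-receptor, secreted inhibitor or intracellular member passed the test. Under the study's rule of an adjusted p below 0.01 with a log2 fold change above 1.5 in size, 0 of 37 members were called against 2.17% of all 16068 genes tested (edgeR's quasi-likelihood test, and 0 members with DESeq2). At an adjusted p below 0.05, 1 of 37 members was called, with a background of 4.13% in either direction and 0.541% for higher genes; the difference from these shares was not tested. At an unadjusted p below 0.05, 7 of 37 members were higher and 2 lower, beside 759 higher and 1158 lower of all 16068 genes. The median log2 fold change was -0.01 over the members and 0.01 over all genes, and 33 of the 37 members (89.2%) lay within 0.5 of 0, as did 93.1% of all genes.

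Fzd10, a Frizzled receptor, was the member with the clearest difference. In ET its normalized count was 517 in replicate 1, 465 in replicate 3, 458 in replicate 4 and 511 in replicate 5. In PF it was 360, 335 and 307 in replicates 1, 2 and 3, 338 in animal 11f5 and 425 in replicate 6. The ET and PF libraries did not overlap, which held for 1 of 37 members and for 1.8% of all genes in the same direction. Fzd10 was 1.38-fold higher in ET (log2 fold change 0.47, SE 0.09, adjusted p = 0.013, edgeR). It remained past 0.05 in 8 of the 9 fits that left out 1 library, and without ET replicate 5 the log2 fold change was 0.45 with an adjusted p of 0.053. With the left hippocampi alone it was 0.58 (adjusted p = 0.0024), and with all 17 libraries 0.50 (adjusted p = 0.0012).

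The AD level of Fzd10 was nearer to that of ET. In AD the normalized count of Fzd10 was 407, 488 and 472 in replicates 1, 2 and 3, 418 in replicate 5 and 567 in replicate 6, a range that encloses all 4 ET libraries. Fzd10 was lower in PF than in AD (log2 fold change -0.41 with SE 0.10, adjusted p = 0.041 by edgeR), while ET against AD gave 0.05 (SE 0.10, adjusted p = 1.0). Both comparisons with PF share the same PF libraries, so they are no independent evidence of each other. The call in PF against AD held in 3 of the 10 fits that left out 1 library, and adjusted p rose to at most 0.11 in the others; it was also lost with sex as covariate (adjusted p = 0.060), without overlapping genes (0.057) and with numbered samples only (0.10). The 3 left-out libraries gave 527 in ET replicate 2, 346 in PF animal 11f6 and 477 in AD replicate 4, of which the first lay above the other ET libraries and the others within the range of their own diet.

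Values of myelin and oligodendrocyte genes are given beside Fzd10. Over 12 such genes, a list chosen after the values were seen, the summed normalized count was 295810.8 to 385861.3 in ET, 217471.7 to 297269.6 in PF and 253718.8 to 359770.0 in AD, ranges that overlapped. Of the 12 genes, 11 had a positive log2 fold change in ET against PF and 3 passed an adjusted p of 0.05 (0.541% of all genes were called higher), among them Ermn (0.38, adjusted p = 0.048) and Aspa (0.38, adjusted p = 0.048), the gene of an enzyme of oligodendrocytes that cleaves N-acetylaspartate. In PF against AD the same list had a median log2 fold change of -0.28 and 1 called gene, Mag (-0.40, adjusted p = 0.037), beside 0.846% of all genes called lower, and in ET against AD the median was 0.10 with 0 called (0 at an unadjusted p of 0.05, edgeR). At an unadjusted p below 0.05 (edgeR), 11 of the 12 were higher in ET against PF, beside 759 of all 16068 genes. In PF against AD 9 were lower, beside 1081 of all 15960 genes. None of the 12 was at or under 3 counts. Among the thalamus and habenula markers, 6 were tested and 1 was called, Tnnt1, with 1.60 in ET against PF (adjusted p = 0.0094) and -1.80 in PF against AD (adjusted p = 0.00074). Slc17a6, of the same list, had 0.51 (adjusted p = 0.43) and -0.52 (adjusted p = 0.25). All 6 tested markers were positive in ET against PF, and 1 of 6 was positive in PF against AD. In ET against PF, edgeR gave 1.04 for Prkcd (adjusted p = 0.30) and 0.83 for Zic1 (adjusted p = 0.23). The part of myelin or thalamic RNA in the results for Fzd10, Sfrp2 and Nkd1 was not tested, and in bulk tissue fewer cells of a type and less RNA per cell cannot be told apart.

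**Figure D2:**
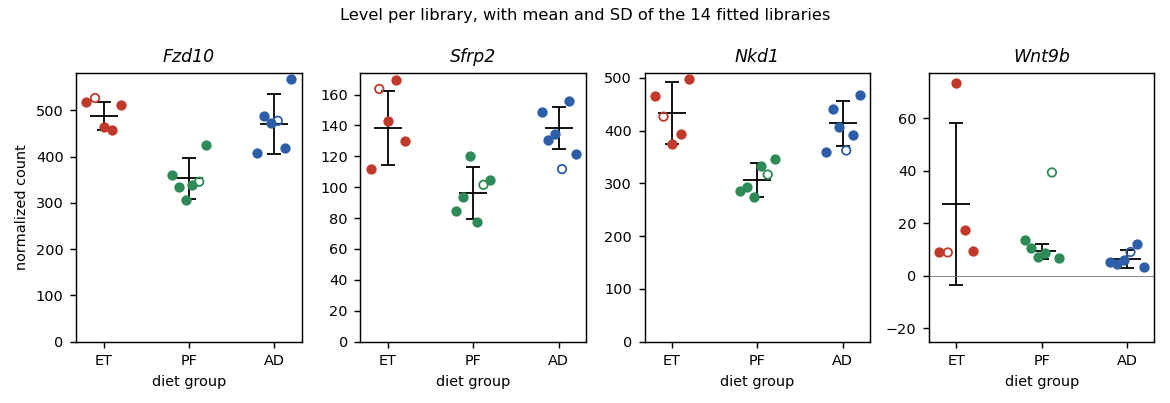
Normalized count of Fzd10, Sfrp2, Nkd1 and Wnt9b (vertical axes, which reach below 0 for Wnt9b so that its error bar can be drawn) in each library by diet; filled points are the 14 fitted libraries, open points the 3 left out, and bars the mean ± SD of the filled points. The PF points of Fzd10 lie between 307 and 425, under all ET points, and 1 ET point of Wnt9b lies at 73.2.

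Among the other Frizzled receptors, 8 were tested and none passed the adjusted threshold in any diet comparison. Fzd6 was nearest, with a log2 fold change of 0.33 and SE of 0.12 (adjusted p = 0.26) in ET against PF and -0.33 (SE 0.11, adjusted p = 0.14) in PF against AD. Its 5 PF libraries ranged from 62.2 to 86.6 normalized counts and the 4 ET libraries from 82.4 to 107.6, so the groups overlapped. Fzd2 was the only tested member whose fitted ET and AD libraries did not overlap. Its ET values of 77.7, 76.3, 95.0 and 98.0 lay under the AD values of 119, 102, 106, 109 and 98.9, by a margin smaller than 1 count between the nearest libraries. The left-out ET replicate 2, at 119.9, lay above every fitted AD library, so the separation holds for the fitted libraries alone. The fitted difference was -0.30 (SE 0.10, unadjusted p = 0.015, adjusted p = 1.0 from edgeR), and 0.483% of all genes had ET libraries under all AD libraries.

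Fzd3, a receptor known for its part in axon guidance, showed the widest range of the tested receptors. Its normalized count was 86.1 in ET replicate 1, the lowest of 17 libraries, and 407 in ET replicate 3, the highest. Those libraries were also the lowest and highest for Prox1, the dentate granule cell factor (110 and 679), and for Zbtb20, a factor of hippocampal pyramidal and granule neurons (1595 and 6387), markers named after the values were seen. Of the 10 hippocampal markers, 8 were lowest in ET replicate 1 and 3 highest in ET replicate 3, among them Grik4 besides these, and the dentate gene Dsp was highest in AD replicate 4. With an SE of 0.35, the log2 fold change of -0.12 for Fzd3 in ET against PF was not distinguishable from 0 (adjusted p = 0.97). The part of regional makeup in these values was not tested.

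Fzd8 had 129 to 223 normalized counts over the 14 fitted libraries, with ET replicate 1 lowest. Fzd4, the receptor that also binds Norrin in brain vessels, ranged from 252 to 378 with its highest value in AD replicate 6. For Fzd8 the log2 fold change was -0.22 (SE 0.12) in ET against PF, and for Fzd4 it was -0.09 (SE 0.08). Neither passed the test (adjusted p = 0.56 and 0.81, edgeR). The co-receptors, on which Dickkopf proteins act, did not pass the test either. Lrp6 ranged from 579 to 930 and Lrp5 from 173 to 236 over the fitted libraries, with ET against PF at -0.04 (SE 0.12) for Lrp6 and -0.01 (SE 0.09) for Lrp5. Lrp5 overlaps another annotated gene, so its counts may include reads of both.

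**Figure D3:**
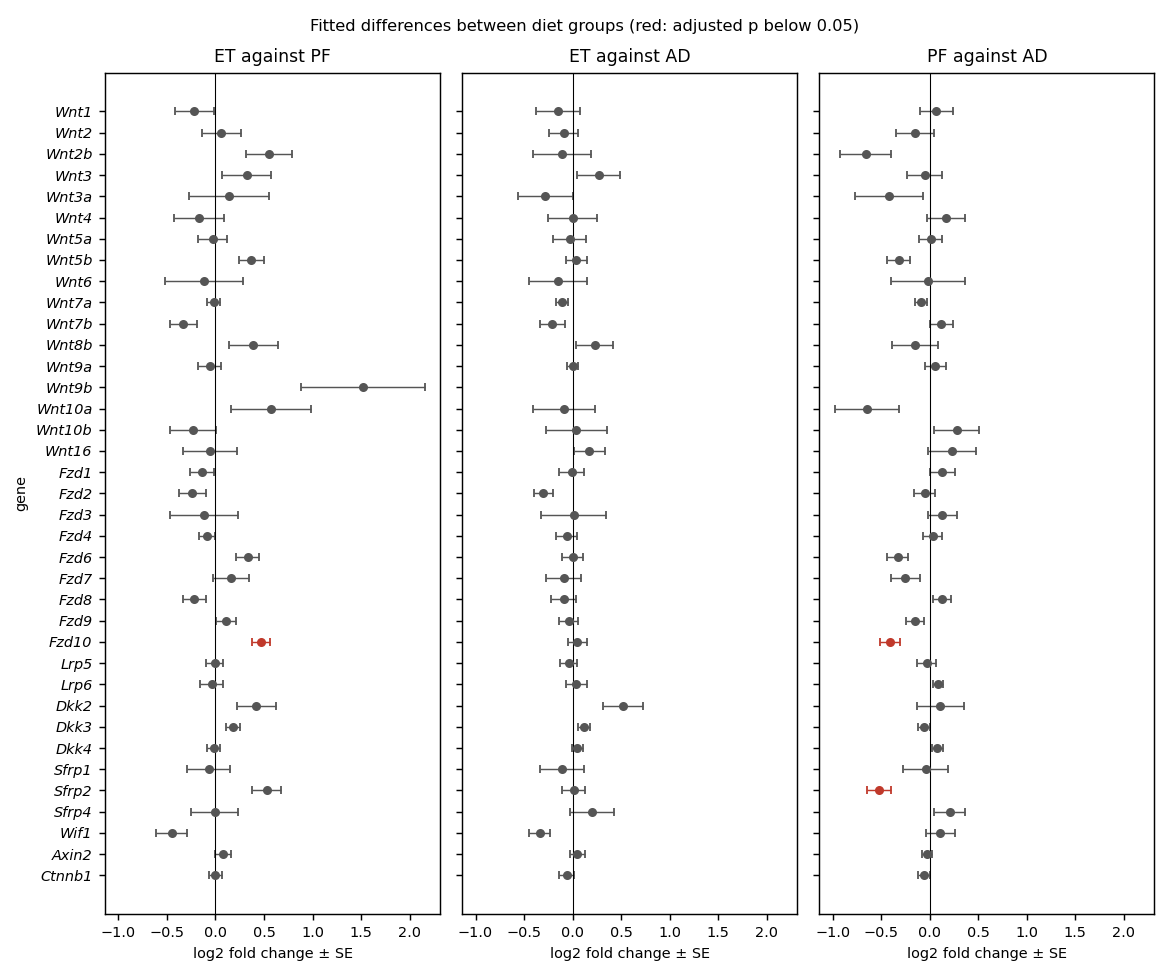
Log2 fold change ± SE (horizontal axes) of each tested member (rows) in ET against PF, ET against AD and PF against AD; red points have an adjusted p below 0.05. Fzd10 is red in the first and last panels, at 0.47 and -0.41, and Sfrp2 in the last, at -0.52.

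Sfrp2, a secreted inhibitor that binds Wnt ligands, was lower in PF than in AD. In PF its normalized count was 84.6, 93.9 and 121 in replicates 1, 2 and 3, 77.2 in animal 11f5 and 105 in replicate 6. In AD it was 149, 131 and 135 in replicates 1, 2 and 3, 156 in replicate 5 and 121 in replicate 6. The highest PF library (120.5) and the lowest AD library (121.4) all but touched, and no other member had PF and AD libraries apart, against 1.6% of all genes in the lower direction. The left-out AD replicate 4, at 111.7, lay inside the PF range, so the separation holds for the fitted libraries alone. The log2 fold change was -0.52 (SE 0.12, adjusted p = 0.023, edgeR). That call held in 5 of 10 fits that left out 1 library. It was lost with the left hippocampi alone (-0.51, adjusted p = 0.12) and with numbered samples only.

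In ET, Sfrp2 measured 112, 143, 169 and 130 normalized counts in replicates 1, 3, 4 and 5, so that 1 of 4 ET libraries fell inside the PF range. Its log2 fold change in ET against PF was 0.53 (SE 0.15) with an adjusted p of 0.11, which did not pass. With all 17 libraries the value was 0.56 and the adjusted p 0.024, in 1 fit of the 3 groups 0.53 and 0.037, and without PF replicate 3 it was 0.62 and 0.050. ET and AD had nearly equal means of 138.4 and 138.3 (log2 fold change 0.01, SE 0.12).

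In PF against AD, which asks what the liquid diet and pair-feeding did without ethanol, Fzd10 and Sfrp2 were the 2 of 36 members called at an adjusted p below 0.05, both lower. The background was 5.17% of 15960 genes in either direction and 0.846% for lower genes; the difference from these shares was not tested. Under the stricter rule 0 of 36 were called, against 2.05% of all genes, by edgeR and by DESeq2 alike. At an unadjusted p below 0.05, 5 of 36 members were lower and 0 higher, beside 1081 lower and 1541 higher of all 15960 genes. Without PF replicate 6, 3 members were called at the wider rule, without PF replicate 1, PF replicate 2 or PF animal 11f5 none, and without PF replicate 3 or any 1 AD library 1. The ligand Wnt2b (-0.66, SE 0.26, adjusted p = 0.23), the ligand Wnt5b (-0.32, SE 0.12, adjusted p = 0.17) and Fzd6 made up the rest of the 5.

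ET against AD, the comparison with freely fed controls, gave 0 of 36 members at an adjusted p below 0.05 with either tool, against 0.0127% of 15749 genes. At an unadjusted p below 0.05, Dkk2 was higher (0.52, SE 0.21) and Fzd2 and Wif1 were lower, each with an adjusted p of 1.0 by edgeR, beside 251 higher and 181 lower of all 15749 genes. Wif1, an inhibitor that binds Wnt ligands directly, had 83.7, 69.3, 72.6 and 77.6 normalized counts in ET and 109, 99.8, 102, 79.5 and 87.7 in AD. These groups overlapped at 1 ET library, and the log2 fold change was -0.34 (SE 0.11). Wif1 was also spread widely in PF, from 78.3 to 131, with -0.45 (SE 0.16, adjusted p = 0.27) in ET against PF. It overlaps another annotated gene.

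Dkk2 lay between 7.51 and 21.5 normalized counts, a level at which a few fragments move the fold change. Dkk3, a divergent member of the Dickkopf family, ranged from 5002 to 6611 over the fitted libraries, with 0.18 (SE 0.07, adjusted p = 0.36) in ET against PF. Dkk4 stayed between 224 and 263, the smallest relative spread of the tested inhibitors (coefficient of variation 5.3%). Its log2 fold changes were -0.02 in ET against PF, 0.05 in ET against AD and 0.08 in PF against AD, with SE of 0.06 to 0.07.

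Wnt9b, a ligand best known from kidney and craniofacial development, had the largest fitted difference of the 37 members in ET against PF and did not pass the test here. The paper lists Wnt9b among the genes higher in ET than in PF, with the sexes pooled and in each sex alone. It used a DESeq method, and the cause of the different outcome was not tested. The normalized count of Wnt9b in ET was 9.08 in replicate 1, 73.2 in replicate 3, 17.6 in replicate 4 and 9.38 in replicate 5. In PF it was 13.7, 10.5 and 6.99 in replicates 1, 2 and 3, 8.83 in animal 11f5 and 6.94 in replicate 6. A single ET library was thus far above the rest, and 2 of the 4 ET libraries lay inside the PF range. The mean was 27.3 ± 30.9 (SD, n = 4) in ET and 9.38 ± 2.81 (SD, n = 5) in PF, with a log2 fold change of 1.52 and SE of 0.64 (adjusted p = 0.37, edgeR). Without ET replicate 3 it was 0.33 (adjusted p = 0.64). With all 17 libraries it was 0.75 (adjusted p = 0.72), since PF animal 11f6 held 39.3 normalized counts and ET replicate 2 held 8.88. In AD the level was 3.49 to 12.2.

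Some markers of the thalamus, which lies beneath the hippocampus, were high in the same libraries. Of 12 thalamus and habenula markers, 4 (Shox2, Prkcd, Zic1 and Rgs16) had ET replicate 3 and PF animal 11f6 as their 2 highest of 17 libraries, and 8 did not, among them Tnnt1 (7.51 in PF animal 11f6), Gbx2 (0.608 in ET replicate 3) and Slc17a6 (highest in AD replicate 3, at 659.7). Shox2 stood at 99.7 normalized counts in ET replicate 3 and 92.9 in PF animal 11f6, against 1.28 to 37.7 in the remaining fitted libraries. ET replicate 2 had 64.2 of Shox2 but no raised Wnt9b. Zic1 was 344, 349 and 317 in ET replicate 3, PF animal 11f6 and ET replicate 2, and the Wnt effector Tcf7l2, abundant in thalamic neurons, was 353, 309 and 323. The summed count of the 12 markers was 884 to 2098 in ET, 628 to 954 in PF and 934 to 1147 in AD over the fitted libraries, and the habenular gene Pou4f1 and Irx2 were at or under 3 counts in each. Their part in the Wnt9b values was not tested.

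**Figure D4:**
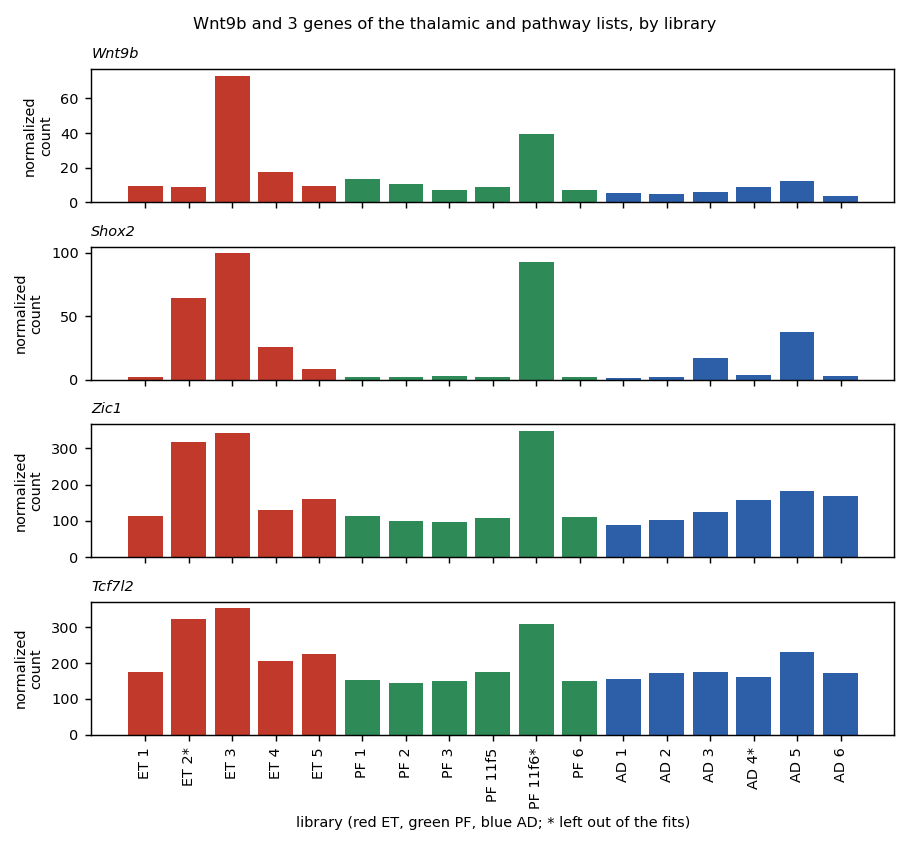
Normalized counts (vertical axes) of Wnt9b, of the thalamic markers Shox2 and Zic1, and of the pathway gene Tcf7l2 in each of 17 libraries, coloured by diet. The tallest bars of Wnt9b, 73.2 and 39.3, stand in libraries in which the other 3 genes are also high, while ET replicate 2 is high for those 3 and has a Wnt9b level of 8.88.

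The remaining ligands showed no difference between diets past the adjusted threshold. Of the 17 tested in ET against PF, 8 had a positive and 9 a negative log2 fold change, with a median of -0.02. Wnt2b (0.55, SE 0.24, adjusted p = 0.40) and Wnt5b (0.37, SE 0.13, adjusted p = 0.24) were on the positive side. Wnt2b counted 11.4, 22.2, 22.1 and 14.2 in ET and 8.39 to 13.7 in PF, so 1 ET library lay inside the PF range, and Wnt5b overlaps another gene.

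Wnt7a and Wnt7b are ligands known for guiding brain vessels and synapses. Wnt7a varied least of the tested ligands, from 374 to 462 normalized counts, and its log2 fold change was -0.02 (SE 0.07) in ET against PF and -0.11 (SE 0.06) in ET against AD. Wnt7b was 511 to 763 in ET, 673 to 1057 in PF and 569 to 795 in AD, with -0.33 (SE 0.14, adjusted p = 0.40) in ET against PF. These Wnt7b ranges overlapped, and the gene overlaps another annotated gene.

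Wnt2 and Wnt4 differed more between littermates than between diets. Wnt2 ranged from 720.5 to 998.5 in ET, 506 to 1146 in PF and 644 to 1113 in AD, and its log2 fold change in ET against PF was 0.06 (SE 0.20). Wnt4 ranged from 432 to 1034 in ET, 601 to 1111 in PF and 545 to 1067 in AD, with -0.17 (SE 0.26). Each is set beside a marker of hippocampal CA1 neurons, in pairs chosen after the values were seen. Wnt4 was lowest in ET replicate 1, as was Fibcd1, a marker of CA1 pyramidal neurons (955), and the 5 libraries with over 1000 normalized counts of Wnt4 held 2678 to 2935 of Fibcd1. Wnt2 was lowest in PF animal 11f6 and PF replicate 1 (496 and 506), in which Wfs1, another CA1 gene, was also lowest (2441 and 2626), while the libraries highest for Wnt2 were not those highest for Wfs1. The 2 CA1 markers went opposite ways there, since PF animal 11f6 and PF replicate 1 held 2703 and 2850 of Fibcd1, among its higher values. These pairs share library and dissection, and the part of regional makeup was not tested.

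**Figure D5:**
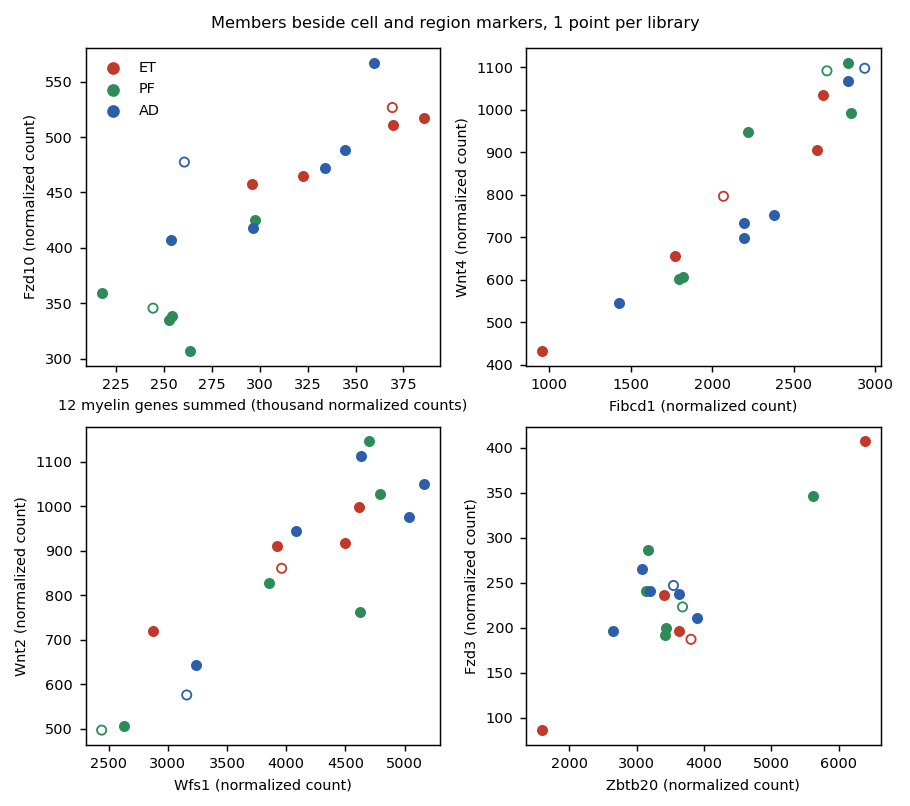
Normalized count of 4 members (vertical axes) against a marker or marker sum (horizontal axes), 1 point per library, with open points for the 3 left-out libraries. ET replicate 1 has the lowest Wnt4 and Fzd3 with the lowest Fibcd1 and Zbtb20, and in the panel of Fzd10 and myelin genes the PF libraries other than PF replicate 6 hold the 5 lowest values of Fzd10.

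The median within-diet SD of log2(normalized count + 1) was 0.24 for the 37 tested members and 0.16 for all 16068 genes, a description that does not adjust for level. Among tested members the SD was highest for Wnt9b (0.82), Wnt6 (0.69), Wnt3a (0.63) and Wnt10a (0.62), all ligands with mean normalized counts of 13.4 to 45.3. In simulated counts with these library sizes, edgeR recovered 80 of 100 genes changed by 0.5 on the log2 scale and 100 of 100 changed by 2. The changed genes were drawn from those above the median level and given the spread usual for their level. The shares therefore do not describe members with low counts or a wider spread.

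Neither intracellular member, Axin2 or Ctnnb1, passed the test in a diet comparison. Axin2 had 292.5, 283, 273 and 348 normalized counts in ET, 270 to 295 in PF and 267 to 308 in AD. Its log2 fold change was 0.08 (SE 0.08, adjusted p = 0.84) in ET against PF, 0.05 (SE 0.08) in ET against AD and -0.03 (SE 0.05) in PF against AD. Ctnnb1, whose product is regulated mainly by protein stability, ranged from 4574 to 5953 and differed by -0.00 (SE 0.07) in ET against PF. An RNA level does not measure the protein or its activity.

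Of 65 other genes of the pathway, a list of transducers, targets and modulators, 61 were tested in ET against PF and 1 passed an adjusted p of 0.05, beside 4.13% of all genes in either direction and 0.541% higher. That gene was Nkd1, with 466, 374, 394 and 498 normalized counts in ET and 286, 294, 273, 333.5 and 347 in PF. Every ET library lay above every PF library, as for 1.8% of all genes, and the log2 fold change was 0.50 (SE 0.10, adjusted p = 0.019). In AD the level was 360, 442, 407, 392.5 and 467, with -0.43 (SE 0.09, adjusted p = 0.0099) in PF against AD and 0.07 (SE 0.10) in ET against AD. Its paralog Nkd2, also an antagonist that binds Dishevelled, was called in PF against AD (-0.57, SE 0.13, adjusted p = 0.025) as the other of 2 called genes among 61, beside 5.17% of all genes in either direction and 0.846% lower. In ET against PF, Nkd2 had a log2 fold change of 0.51 and SE of 0.22 (adjusted p = 0.39), and its ET range of 105 to 234 overlapped the PF range of 82.5 to 135. Alternative fits of single genes are given for members alone, so how far the Nkd1 and Nkd2 calls hold in them is not shown. No gene of the list was called in ET against AD, in which 60 were tested and 0 passed an unadjusted p of 0.05. The median log2 fold change of the list was -0.01 in both comparisons with PF.

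Sex gave no member call in the ET and PF libraries. Of 37 members, 0 were called between males and females at an adjusted p of 0.05 by edgeR or DESeq2, beside 0.0436% of all genes. At an unadjusted p below 0.05 there were 0 members, beside 141 higher and 160 lower of all 16068 genes. The interaction of sex and diet also called 0 of 37 with either tool, against 0.0% of 16484 genes. At an unadjusted p below 0.05 the interaction was positive for Wnt7b (0.59, SE 0.25) and negative for Wnt3 (-1.03, SE 0.42), both with an adjusted p of 1.0 by edgeR, beside 134 positive and 97 negative of all 16484 genes. These fits held 2 male and 2 female ET rats and 2 male and 3 female PF rats.

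In the 3 left-out libraries, 2 of 37 tested members stood above all 14 others, against 3.82% of all genes in that direction. Sfrp1, which encodes a secreted inhibitor, had 453 normalized counts in ET replicate 2, 278 in PF animal 11f6 and 317 in AD replicate 4, against 102 to 217 in the fitted libraries. Fzd7 had 78.7, 86.9 and 98.1 against 39.2 to 75.0. Sostdc1, an inhibitor of Wnt and BMP signalling that choroid plexus epithelium expresses, reached 1302, 1356 and 1272 in these libraries, and between 0.957 and 200 in the fitted ones.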

How the data were processed

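Stranded mRNA libraries (TruSeq) of the hippocampus of 17 rats were sequenced as paired ends. The authors trimmed reads with fastp, mapped them to mRatBN7.2 with Bowtie2 2.4.2 under default options and counted fragments on exons with featureCounts 2.0.1 (minimum mapping quality 10, with reads allowed to count for several features). Strand setting and annotation release are not given in the sources used here. The deposited values are fragment counts that the authors averaged over 3 technical replicates and did not normalize. As averages they were handled like expected counts, although the authors deposited no model estimates. Overlapping genes can therefore share reads, as 11 of the 42 members may by their positions in the RefSeq list of GRCr8, which matched 28858 of 34322 symbols (84.1%).

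Averaged counts were rounded, filtered with filterByExpr, scaled by TMM and tested with edgeR 4.0.16 (quasi-likelihood) in R 4.3.3 over all genes, with Benjamini-Hochberg adjustment. The SE is the log2 fold change divided by the square root of F. Normalized counts are scaled by TMM over 17 libraries. Alternatives were DESeq2 1.42.0, median-of-ratios scaling, no filter, all 17 samples, a replicate block, sex as covariate, 1 fit of 3 groups, no overlapping genes and leaving out each replicate; left hippocampi only and numbered samples only were chosen after seeing the data. On simulated data of 15943 genes edgeR made 11 false calls. Members and gene lists were chosen with earlier results of these data known. Members were named if called, if among the 2 smallest p of their class in a comparison or the 3 highest means of their class, plus Wnt9b. Wnt3, Wnt3a, Wnt6, Wnt10a, Fzd7, Dkk1 and Sfrp5 fall outside that rule and were named after their values were seen, and Wnt8a, Wnt11 and Fzd5 are named as not tested. The 3 left-out libraries are those absent from the study's final 14. For the PF animals 11f5 and 11f6 the labels do not tell the replicate number, so they are named by animal, as in the count table's header. Within diets, 40 pairs of libraries were compared and none were duplicates (smallest chi-square per gene 9.17). Leptomeningeal marker sums over 10 genes were 2400 to 4312 in ET, 2280 to 3988 in PF and 2892 to 5027 in AD, and endothelial sums over 7 genes 3754 to 5063, 4439 to 5201 and 4356 to 5173. Floors cover counting error only, since fragments carried no molecular identifiers. The values of 1 called gene of the myelin list are not reported here.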

Additional observations from a re-analysis of the deposited data

Results flagged for a closer look

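Within the diet groups of the fitted libraries, 69 groups of a named member were examined for a single library far from the rest, and 6 were found where chance gives 1 in 20, or 3.5. Wnt7b stood apart in PF replicate 1, at 1057.1 normalized counts the highest of 5 PF libraries, and in AD replicate 6, at 569.2 the lowest of 5 AD libraries. Wnt9b stood apart in ET replicate 3 (73.2, the highest of 4) and in AD replicate 5 (12.2, the highest of 5). Fzd4 was highest in AD replicate 6 (378.3), and Lrp5 was highest in PF replicate 1 (235.7). Causes were not tested.

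The 3 libraries left out of the fits were above all 14 others in 2 of 37 tested members, beside 3.82% of all genes: the median of the 3 was 2.08 times the median of the 14 for Sfrp1 and 1.39 times for Fzd7.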

How the results depend on the processing

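No member met the stricter rule under any alternative run. Members called at an adjusted p below 0.05 in ET against PF numbered 2 with all 17 samples or in 1 fit of 3 groups, and 0 to 2 when 1 library was left out (0 without ET replicate 5, 2 without PF replicate 3). In PF against AD they numbered 0 with numbered samples only, 1 with left hippocampi only, sex as covariate or no overlapping genes, and 0 to 3 when 1 library was left out.

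Fzd10 in PF against AD was not called with numbered samples only (adjusted p = 0.10), sex as covariate (0.060) or no overlapping genes (0.057). The sex covariate used the labels, which 2 AD libraries go against. The replicate numbers did not pair the samples: they name different animals, and same-numbered samples correlated with a mean of 0.29 over 2 pairs of ET and PF, -0.05 over 3 of ET and AD and -0.03 over 4 of PF and AD. With a replicate block, ET against PF gave 0 members, 359 genes at the wider rule and 197 at the stricter, with Fzd10 at 0.57 (adjusted p = 0.10). The replicate block gave 1 member in PF against AD, with Sfrp2 at -0.41 (adjusted p = 0.15), and 0 genes at the stricter rule in ET against AD.

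Over all genes, leaving out overlapping ones gave 216 and 127 calls in ET against PF and 310 and 122 in PF against AD at the wider and stricter rules. In ET against AD the wider rule gave 11 genes with DESeq2, 6 with all 17 samples, 5 in 1 fit of 3 groups and 2 to 4 when 1 library was left out. Without the filter PF against AD gave 493 genes at the stricter rule. The interaction gave 0 to 1 gene at either rule when 1 library was left out.

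Some log2 fold changes near 0 changed sign, none past a threshold. In ET against PF, Ctnnb1 was 0.00 with all 17 samples and -0.04 to 0.04 when 1 library was left out; Lrp5 was 0.00 with all 17 samples, 0.07 in left hippocampi and -0.03 to 0.06; Lrp6 was -0.16 to 0.06. In ET against AD, Sfrp2 was -0.19 with the replicate block, -0.00 in left hippocampi and -0.10 to 0.09 when 1 library was left out, Axin2 -0.03 to 0.09, Fzd8 -0.17 to 0.02, Lrp5 -0.10 to 0.01 and Lrp6 -0.08 to 0.15. Lrp5 in PF against AD was -0.10 to 0.03. The cause of these changes was not tested. Depth limits members such as Wnt9b and Dkk2, whose counts are low.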
